A study of Mus musculus with 112 samples.

Results

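The clustered protocadherin genes of the mouse lie in 3 neighbouring arrays on chromosome 18, named Pcdha, Pcdhb and Pcdhg. DNA methylation (DNAme) was taken at the cytosines with a value in a window for each gene, from 1 kb upstream of its own first exon to the end of that exon. This gave 58 windows of 21939 gene windows (protein-coding genes, plus Pcdhgb8, which the annotation lists as a polymorphic pseudogene), with 14 in Pcdha, 22 in Pcdhb and 22 in Pcdhg. In all, 2102 of the 4388579 CpG cytosines with a value in any of the 13 tables lay in these windows. In mm10 coordinates (GENCODE vM21, all genes on the forward strand), the Pcdha windows ran from 36929285 at Pcdha1 to 37146530 at Pcdhac2. The Pcdhb windows ran from 37263938 at Pcdhb1 to 37524479 at Pcdhb22, and the Pcdhg windows from 37660793 at Pcdhga1 to 37822134 at Pcdhgc5.

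Clustered protocadherins are cell-surface adhesion proteins that give single neurons an identity and let a neuron avoid its own branches. Each variable gene has a large first exon that codes for the outer part, the membrane span and a short stretch inside the cell, and each has its own promoter. In Pcdha and Pcdhg these first exons are spliced to constant exons shared by the whole array, whereas Pcdhb genes have no shared exons. A neuron switches on a small, largely random choice of the alternate genes (Pcdha1 to Pcdha12, Pcdhb, Pcdhga and Pcdhgb), while the C-type genes (Pcdhac1, Pcdhac2, Pcdhgc3, Pcdhgc4 and Pcdhgc5) are used more uniformly within a neuron type. Promoter methylation, set in the embryo by the methyltransferase DNMT3B, and the proteins CTCF and cohesin are known to take part in this choice.

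The libraries, in 13 groups, came from reduced representation bisulfite sequencing, which reads the CpG-rich fragments left by restriction enzymes. F0 sperm came from C57BL/6J wild type (WT) males left unexposed (control WT, n = 10), from WT males collected soon after several weeks of cigarette smoke, or CS (smoked WT, n = 9), and from WT males kept for increasing times after the same exposure (recovery 1, n = 9; recovery 2, n = 10; recovery 3, n = 10). It also came from unexposed and CS-exposed Nrf2-/- males on the C57BL/6J background (n = 10 and n = 9), which lack NRF2, the main switch of the antioxidant response, in every cell. Sperm and prefrontal cortex of adult F1 sons were profiled, and no son was itself exposed. The F1 sperm groups held 6 sons whose sire was control WT and 7 whose sire was smoked WT. The F1 brain groups held 8 sons each of unexposed WT, exposed WT, unexposed Nrf2-/- and exposed Nrf2-/- sires, and carry the name of the sire's group. Since columns are known by group only, the sire and litter of a son could not be used. The tests treat sons as independent, and their errors take no account of shared sires. All sons had a CAST/EiJ mother, so that they carry sequence of that strain on 1 of their alleles, and those of Nrf2-/- sires are heterozygous for the targeted allele. A brain sample titled as control WT has Nrf2-/- in its strain label, and its column is unknown. Sperm was treated to lyse somatic cells, and the cortex is a mixture of neurons and other cells, so that fewer methylated cells and less methylation per cell cannot be told apart.

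The labels were checked on other genes. Promoters of germline genes such as Dazl and Ddx4, which sperm leaves unmethylated, had gene means of 0.459 to 2.46% in the sperm of F0 males (10 of 10 genes measured), 0.839 to 4.63% in that of F1 sons (4 measured) and 65.2 to 96.9% in F1 brain (8 measured). Maternally methylated imprinted promoters such as Peg3 and Snrpn had gene means of 0.516 to 2.29% in F0 sperm (6 of 10 measured), 0.921 to 3.41% in F1 sperm (4 measured) and 21.6 to 45.7% in brain (6 measured). In Nfe2l2, the gene of NRF2, 6 cytosines were read in each of the 48 F0 sperm libraries of WT males, and 4 of these were read in none of the 19 Nrf2-/- libraries. An F0 sperm library held 800578 to 1855546 positions, an F1 sperm library 510212 to 1429060, and a brain library 1332684 to 1711088.

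A cytosine was called scoreable when each group of the same tissue and generation had 4 or more libraries with a value there, and the strands of a CpG were counted separately. The protocadherin windows held 710 such cytosines for F0 sperm, 333 for F1 sperm and 754 for brain. A window needed at least 3 scoreable cytosines, and a library needed a value at 50% or more of them. By this standard, 48 of 58 windows could be tested for F0 sperm, 37 for F1 sperm and 49 for brain. The genes Pcdha6, Pcdhb4, Pcdhb8, Pcdhb12, Pcdhb15, Pcdhb21 and Pcdhga6 could be tested in none of them. In each tissue and generation, most tested windows had no scoreable cytosine upstream of the exon. In brain, for example, the cytosines of Pcdha3 had a median position of 2020 bp into the exon. Levels of such windows are levels within the first exon and do not cover the 1 kb upstream. Window levels are percent methylation adjusted for which cytosines a library has, and can therefore fall slightly below 0. The windows of Pcdhb17 and Pcdhb18 share 990 bp, those of Pcdhb19 and Pcdhb20 share 865 bp, and those of Pcdhb21 and Pcdhb22 share 1455 bp. The genes of an array are close copies. Of the scoreable cytosines, 0 lacked a stretch of 50 bases that is unique within the clusters, where any stretch over the cytosine counted. Actual reads start at restriction sites, and whether some were placed on the wrong copy was not tested.

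In sperm most clustered protocadherin genes were nearly free of methylation, and in prefrontal cortex nearly all the alternate genes sat at middle to high levels while most C-type genes stayed low. Over all its cytosines, the Pcdha cluster in control WT had a level of 3.42% ± 1.03 (SD, n = 10) for F0 sperm, 5.26% ± 0.927 (n = 6) for F1 sperm and 34.1% ± 1.03 (n = 8) for F1 brain. The Pcdhb cluster had 9.92% ± 0.867, 11.4% ± 1.202 and 62.7% ± 1.01 in the same 3 groups. The Pcdhg cluster had 4.24% ± 0.640, 4.14% ± 0.571 (n = 5) and 32.7% ± 1.15. The highest sperm library of any cluster and group stayed far under the lowest brain library of that cluster, as the plot of cluster levels by library shows. Each tissue and generation has its own scoreable cytosines here, so these means are set side by side and not tested. They also move with the part of the window read and the minimum of libraries per group, as the closing section gives.

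**Figure D1:**
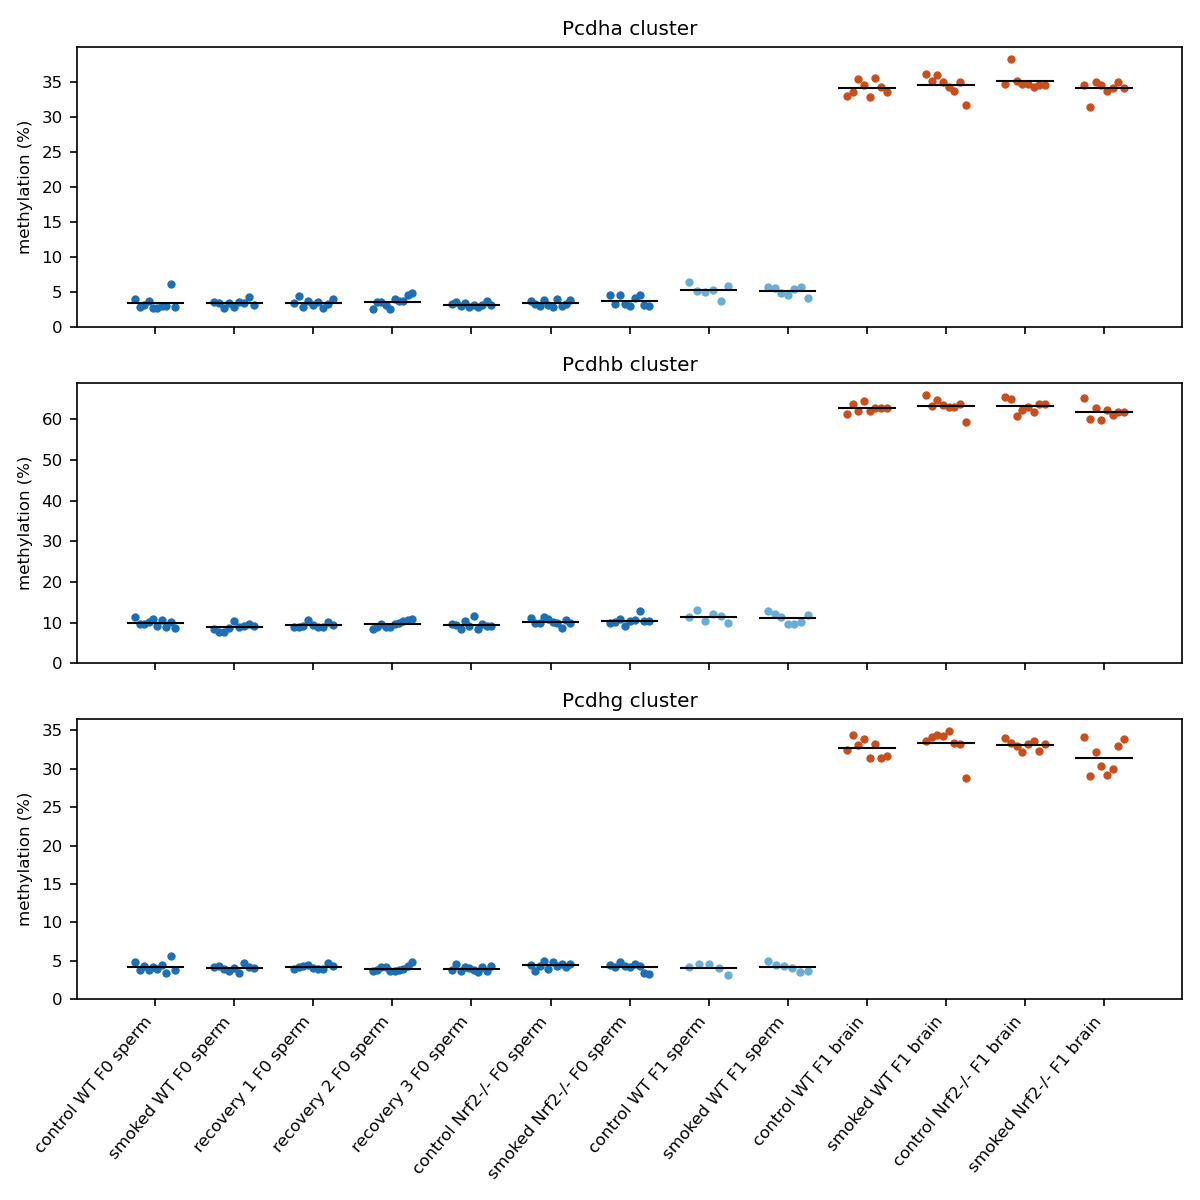
DNAme (percent, mean over scoreable cytosines adjusted for which are present) of the Pcdha, Pcdhb and Pcdhg clusters in every library (points) of the 13 groups, with bars for group means and the vertical axes starting at 0. The 8 control WT brain libraries lie between 32.9 and 35.5% in Pcdha, 61.3 and 64.4% in Pcdhb, and 31.3 and 34.3% in Pcdhg, and no sperm library comes near them.

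In F0 sperm the Pcdha alternate genes were the most uniformly low. All 98 scoreable cytosines of Pcdha1 to Pcdha12 had a mean under 20% in control WT, and 9 of 10 windows were below 5%. Pcdha5 had the lowest level, with libraries from 0 to 2.00% and a median of 0.606% (n = 7). Pcdha12 and Pcdha9 had 1.06% ± 1.07 and 1.09% ± 0.827 (n = 10 each), and neighbours in this order differed by less than their SDs. Pcdha8 stood above the others, from 4.41 to 11.3% with a median of 6.57% (n = 10), and 3 of its 6 scoreable cytosines lay upstream of the exon. Pcdha2 followed at 2.02% ± 2.67 (n = 9) on 4 cytosines.

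Of the 16 Pcdhb windows in F0 sperm, 8 were below 5% and 4 were at or above 20%. Pcdhb18, Pcdhb1 and Pcdhb16 were the lowest, at 0.894% ± 1.78, 1.16% ± 1.07 and 1.72% ± 1.38 (n = 10 each). Pcdhb19 was the highest, with libraries from 24.9 to 41.7% and a median of 37.5% (n = 10, 8 cytosines), and in F1 sperm it had 22.8 to 42.1% with a median of 32.5% (n = 6, 8 cytosines). Pcdhb13 ranged from 27.1 to 42.3% (median 33.2%, 7 cytosines) and Pcdhb14 from 22.8 to 32.97% (median 26.9%, 4 cytosines). Pcdhb19 and Pcdhb13 lay within each other's SD, while Pcdhb14 was lower, with its highest library under the medians of the other two. Every library of these 3 genes was above every library of Pcdhb1 and Pcdhb18. The Pcdhb cytosines in the 500 bp upstream of the exon had a mean of 25.3% (14 cytosines in 6 genes), against 3.93% in the first 500 bp of the exon (24 cytosines in 6 genes). The genes were not all the same, since Pcdhb1 had cytosines in the first 500 bp and none upstream, and position was not compared within genes.

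Among the Pcdhg alternate genes in F0 sperm, 14 of 18 windows were below 5%, and a single gene was highly methylated. Pcdhga7 ranged from 75.8 to 86.1% with a median of 84.5% (n = 10). Its 7 scoreable cytosines lay 984 to 1683 bp into the first exon, and none covered its start. Pcdhga1 ranged from 10.2 to 13.2% with a median of 12.3%, and Pcdhgb4 from 5.92 to 11.5% with a median of 7.78%, both on 10 libraries. Pcdhga5 and Pcdhga12 were the lowest, at 0.382% ± 0.663 (n = 9) and 0.671% ± 1.297 (n = 10). In F1 sperm Pcdhga5 was again the lowest, at 0.25% ± 0.559 (n = 5), while Pcdhga2, Pcdhga3 and Pcdhga1 had the highest levels, at 16.1% ± 8.20 (n = 4), 10.96% ± 1.51 (n = 4) and 7.90% ± 2.67 (n = 5).

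By the median alternate window, the order of the arrays in brain was Pcdhb above Pcdha above Pcdhg, with ranges that overlapped. The windows were read at unlike places in the exon. In its first 500 bp the median gene had 32.8% in Pcdha1 to Pcdha12 (2 genes), 27.7% in Pcdhb (3 genes) and 12.9% in Pcdhga and Pcdhgb (14 genes). The median window of Pcdha1 to Pcdha12 had 57.1% (10 windows, 23.1 to 69.7%). The median Pcdhb window had 60.7% (16 windows, 48.6 to 79.8%), the median Pcdhgb window 40.6% (7 windows, 26.8 to 56.3%) and the median Pcdhga window 28.7% (11 windows, 22.9 to 85.3%). Over the cytosines scoreable in brain, no alternate window was below 20% in control WT brain. Pcdha7, Pcdha2 and Pcdha3 were the highest of Pcdha, at 69.7% ± 8.75 (n = 8), 64.9% ± 11.5 (n = 6) and 63.9% ± 3.44 (n = 8), which do not differ beyond their spread. Pcdha5 was the lowest alternate gene of that array, with libraries from 8.49 to 35.6% and a median of 25.9% on 5 cytosines within 449 to 467 bp of the exon start.

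Pcdhb17 was the highest Pcdhb gene in brain, from 76.4 to 83.4% with a median of 80.1% (n = 8, 17 cytosines). Pcdhb16 and Pcdhb19 came next at 74.6% ± 5.48 and 73.3% ± 3.04, within each other's spread. Pcdhb13, Pcdhb14 and Pcdhb18 were the lowest of the array, at 48.6% ± 8.42, 51.4% ± 2.96 and 53.1% ± 5.89 (n = 8 each). Pcdhb13 and Pcdhb14 were thus among the highest of their array in F0 sperm and the lowest in brain, each with under 10 cytosines. These were not all the same cytosines in the tissues, with 4 in F0 sperm and 7 in brain for Pcdhb14. In Pcdhg, Pcdhga7 was again the highest, from 80.9 to 87.6% with a median of 85.6%, followed by Pcdhgb2 at 56.3% ± 4.40 (n = 8) and Pcdhga2 at 51.1% ± 6.61 (n = 4). Pcdhga11 was the lowest Pcdhg alternate gene, from 20.2 to 26.3% with a median of 22.3% (24 cytosines), and Pcdhga10 was within its spread at 24.5% ± 1.49 (35 cytosines).

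The C-type genes were low in both tissues, with some exceptions that lay deep in the exon. In brain Pcdhgc4 had 0.727% ± 0.530, Pcdhgc3 2.76% ± 0.808, Pcdhac1 4.87% ± 0.942 and Pcdhac2 8.62% ± 0.959 (n = 8 each). Pcdhgc5 stood above them, with libraries from 16.1 to 42.3% and a median of 23.8%, on 9 cytosines whose median position was 2462 bp into an exon of 2622 bp. In F0 sperm Pcdhgc3 had 0.540% ± 0.798 (n = 10), Pcdhgc4 0.906% ± 1.10 (n = 9) and Pcdhac1 1.12% ± 1.05 (n = 9), whereas Pcdhac2 ranged from 9.90 to 15.2% with a median of 11.1% (n = 9). The 4 Pcdhac2 cytosines beyond 2000 bp of the exon carried this level, with means of 47.3% for the nearer 2 and 81.6% for the farther 2. The C-type genes together had 5.99% ± 0.764 in control WT brain, and the alternate genes 47.1% ± 1.05 (n = 8 each), with no overlap between the libraries of the 2 sets.

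**Figure D2:**
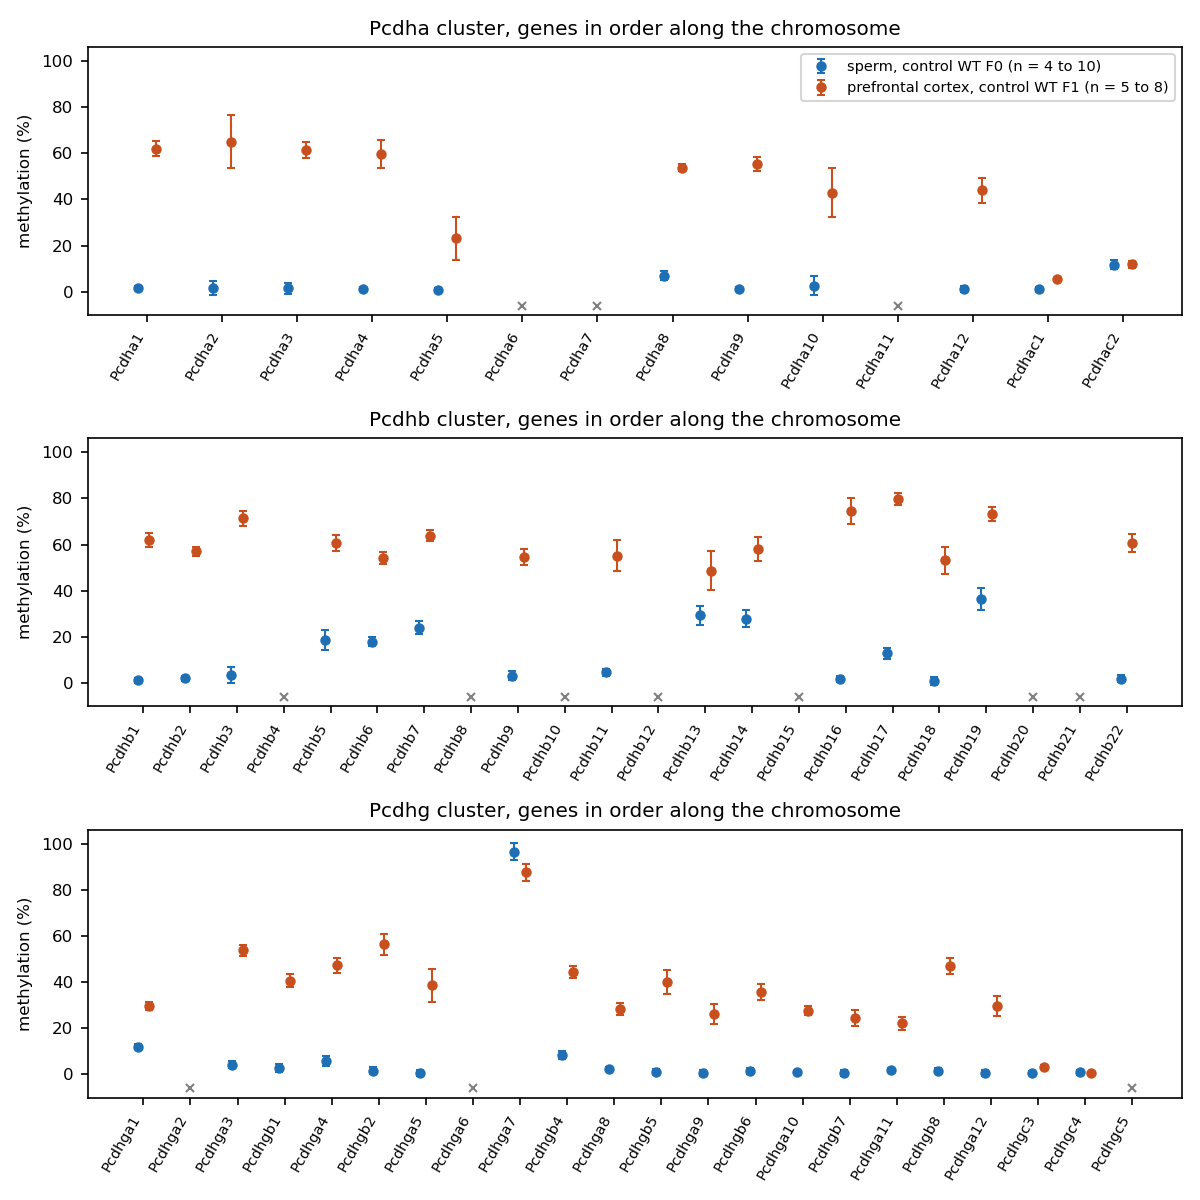
DNAme (percent, mean ± SD over libraries) of each window in control WT F0 sperm (blue) and control WT F1 prefrontal cortex (orange), over cytosines scoreable in both, with genes in their order along each array and grey crosses for windows without a value in both. The alternate genes separate between tissues, apart from Pcdhga7, which is high in both, and the C-type genes Pcdhac1, Pcdhac2, Pcdhgc3 and Pcdhgc4 stay low in both.

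Single cytosines showed that the middle levels were not only averages of low and high sites. In control WT brain 77.3% of the 88 cytosines of Pcdha1 to Pcdha12 had a mean between 20 and 80%, as did 58.8% of the 153 Pcdhb cytosines and 60.8% of the 365 Pcdhga and Pcdhgb cytosines. Among the 148 C-type cytosines the share was 9.46%, and 90.5% were below 20%. In the other gene windows 2.31% of 405134 cytosines were between 20 and 80%, and 96.4% were below 20%. Pcdhb had the largest share above 80%, at 32.7%, against 15.9% in Pcdha1 to Pcdha12, 10.96% in Pcdhga and Pcdhgb, and 0% in the C-type genes. In control WT F0 sperm 17.4% of the 167 Pcdhb cytosines were between 20 and 80%, against 0.896% of the 335 Pcdhga and Pcdhgb cytosines and 0.723% of 289409 in other gene windows. The percents cover all cells and both alleles of a sample, so a middle level on 1 allele, in some cells, or on each molecule in part cannot be told apart here. Whether CAST/EiJ variants at these cytosines change the percents of the sons was not checked.

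**Figure D3:**
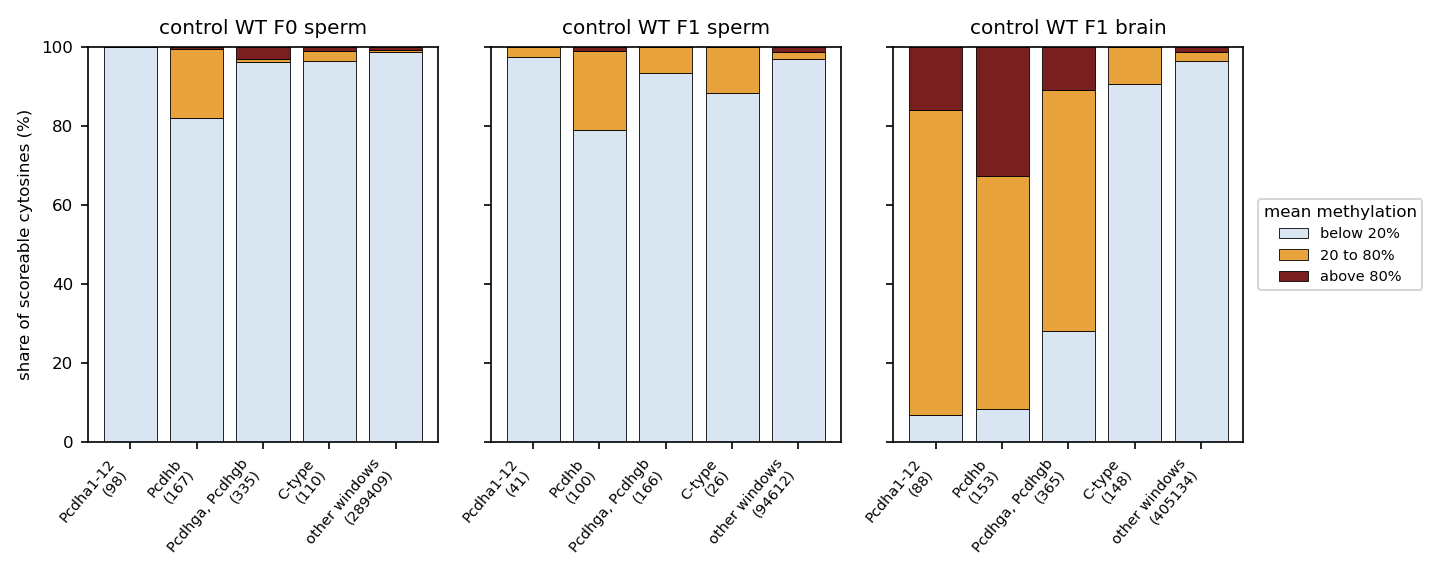
Share of scoreable cytosines (percent, axis from 0 to 100) with a mean methylation below 20%, between 20 and 80%, or above 80% in control WT F0 sperm, F1 sperm and F1 brain, for 4 sets of protocadherin windows and all other gene windows, with the number of cytosines in brackets. The alternate genes shift to the middle class in brain, where Pcdha1 to Pcdha12 have 6.82% of cytosines below 20%, while C-type and other windows stay mostly below 20%.

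The study's design allowed a direct test of the tissues in the same kind of animal, over cytosines scoreable in both F1 sperm and F1 brain. In sons of control WT sires, 30 of the 32 protocadherin windows tested had higher DNAme in brain than in sperm at an adjusted p under 0.05 (limma, Benjamini-Hochberg over 7744 gene windows), and 0 had lower. Over all windows tested, 22.3% were called, 19.6% higher and 2.67% lower in brain. The median difference was 50.6 percentage points in the protocadherin windows and 0.241 in all windows. In 30 of the 32 windows the libraries of the 2 tissues did not overlap, against 18.8% of all windows. All 5 windows of Pcdha1 to Pcdha12 tested, all 13 of Pcdhb and all 12 of Pcdhga and Pcdhgb passed. By the size rule without a test (a mean change above 5 points with at least 33.3% of cytosines past 5 points), 31 of 32 windows were higher in brain and 10.8% of all windows were.

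Pcdhb11 had the largest difference. Its F1 sperm libraries had 3.92 to 11.1% (median 5.01%, n = 4 of 6) and its brain libraries 66.1 to 83.3% (median 76.9%, n = 8), a difference of 70.0 points ± 3.28 (SE, limma adjusted p = 7.52e-22) on 3 cytosines. Pcdhb3 followed with 2.00 to 4.44% in sperm (median 3.60%, n = 6) and 66.2 to 74.4% in brain (median 68.3%), which is 65.8 points ± 1.01 (limma adjusted p = 1.07e-42, 6 cytosines). The tissues were separated by more than 50 points in both genes. In Pcdha the 5 differences lay close together, from 55.3 points ± 1.70 in Pcdha9 and 56.8 ± 2.60 in Pcdha3 to 57.9 ± 4.76 in Pcdha12, 58.2 ± 1.60 in Pcdha8 and 59.1 ± 3.12 in Pcdha4. Pcdha4 had −0.507 to 2.90% in sperm (median 0, n = 6) and 48.1 to 68.9% in brain (median 59.4%, n = 8).

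The other Pcdhb windows differed by 25.9 to 64.5 points. Among those with the larger changes, Pcdhb22, Pcdhb2 and Pcdhb18 rose by 64.5 ± 2.50, 64.4 ± 1.85 and 62.6 ± 4.13 points, Pcdhb1, Pcdhb9 and Pcdhb6 by 57.8 ± 1.56, 57.5 ± 1.37 and 56.1 ± 3.43, and Pcdhb7 and Pcdhb5 by 46.4 ± 2.36 and 43.4 ± 2.16. The smaller differences belonged to genes with more methylation in sperm. Pcdhb14 had 18.1 to 40.6% in sperm (median 31.8%, n = 6) and 52.7 to 64.7% in brain (median 54.3%), a difference of 25.9 points ± 2.41 (limma adjusted p = 1.57e-12). Pcdhb17 and Pcdhb19 rose by 35.8 ± 2.08 and 41.5 ± 2.86 points.

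In Pcdhg the differences spread more widely. Pcdhga3 had 16.6 to 22.9% in sperm (median 19.0%, n = 4) and 69.6 to 88.1% in brain (median 80.8%), a difference of 60.3 points ± 3.10 (limma adjusted p = 8.36e-20). Pcdhga5 read 0 in each of its 5 sperm libraries and 42.5 to 58.3% in brain, a difference of 53.3 points ± 4.70 on 4 cytosines. The Pcdhgb genes Pcdhgb2, Pcdhgb8, Pcdhgb4, Pcdhgb1 and Pcdhgb5 rose by 52.1 ± 1.49, 49.2 ± 1.68, 45.7 ± 1.87, 37.4 ± 2.18 and 34.0 ± 1.79 points. Pcdhga1, Pcdhga8 and Pcdhga4 rose by 27.5 ± 2.54, 25.9 ± 1.74 and 20.2 ± 1.58 points. Pcdhga11 had the smallest difference of an alternate gene, from 1.13 to 2.93% in sperm (median 1.58%, n = 5) to 14.2 to 17.4% in brain (median 15.5%), which is 14.0 points ± 1.23 (limma adjusted p = 3.41e-13) on 13 cytosines.

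The 2 C-type genes that could be tested did not pass. Pcdhgc3 had 0.446 to 1.199% in sperm (n = 4) and 0.255 to 4.52% in brain (n = 8), a difference of 1.68 points ± 0.886 (limma adjusted p = 0.215). Pcdhac2 had 28.1 to 46.3% in sperm (n = 5) and 28.1 to 57.9% in brain on 4 cytosines, a difference of 6.98 points ± 4.90 (limma adjusted p = 0.402). Neither result shows that the tissues are equal. By the size rule Pcdhac2 was higher in brain, by 7.95 points, with 3 of 4 cytosines past 5 points. Its 4 cytosines shared by the tissues lay beyond the first 500 bp of the exon. In control WT F1 sperm Pcdhac2 had 1.25% ± 1.44 in the first 500 bp and 34.8% ± 8.42 beyond (n = 4). The comparison of tissues thus did not cover the low part of this gene. F1 sperm and F1 brain carry the same parental strains, and the same cytosines were read in both, with a median window level of 2.48% in sperm and 58.6% in brain over the 32 windows.

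A low level in sperm with a middle level in brain was frequent in these windows. Over cytosines scoreable in F0 sperm and F1 brain, 9 of 9 windows of Pcdha1 to Pcdha12, 11 of 15 of Pcdhb and 16 of 17 of Pcdhga and Pcdhgb were below 20% in control WT sperm and between 20 and 80% in control WT brain. None of the 4 C-type windows was. Together this was 36 of 45 protocadherin windows (80%), and 434 of 11737 other gene windows (3.70%). Over cytosines scoreable in both F1 tissues it was 26 of 32 (81.25%) and 309 of 7712 (4.01%). The median first exon had 2611 bp in the protocadherin windows and 224 bp in the other gene windows. The shares of all or other gene windows, here and above, were not matched for exon length.

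Other genes of the pathway were read in the same test. Of the 15 non-clustered protocadherins and CELSR cadherins, 9 could be tested and 6 were higher in brain, where 19.6% of all windows were. Celsr1, which guides planar cell polarity, rose from 25.3% ± 1.34 (n = 5) to 37.7% ± 0.538 (n = 8), and Pcdh19, an adhesion gene of the X chromosome linked to epilepsy, from 11.003% ± 2.62 (n = 5) to 23.6% ± 2.05 (n = 8). Celsr3, Celsr2, Pcdh8 and Pcdh17 rose by 5.42, 3.65, 1.77 and 1.51 points. Pcdh7, Pcdh10 and Pcdh18 did not pass and had at most 1.68% in either tissue. Of the 15 regulators of the clusters, 11 were tested and 0 passed in limma, where 22.3% of all windows did (3 at an unadjusted p under 0.05, where 28.3% of all windows were). All of these were low in both tissues (at most 6.17%, in Rest) except Wiz, with 78.9% ± 3.54 (n = 8) in brain and 79.9% ± 10.5 (n = 5) in sperm. Among the neighbouring genes, Slc25a2, a mitochondrial ornithine carrier gene, rose from 45.7% ± 1.57 (n = 6) to 95.7% ± 0.963 (n = 8), and Taf7, a subunit of the general transcription machinery, had 0.330% ± 0.389 (n = 5) in sperm and 0.688% ± 0.217 in brain.

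Within the first exons, DNAme in brain was higher farther from the exon start. The first 500 bp were compared with the rest of the exon in the same library, for genes with at least 3 scoreable cytosines in each. In control WT brain all 19 alternate genes with values had more DNAme in the rest of the exon, and all 19 did so in every library. The median gene had 16.6% in the first 500 bp and 52.4% beyond, with a median difference of 30.9 points (17.7 to 64.2). Pcdhga1 had 16.6% ± 2.35 in its first 500 bp and 80.8% ± 2.66 beyond, and Pcdhga3 had 23.8% ± 4.84 and 85.5% ± 2.72 (n = 8 each). Pcdhb1 had 28.3% ± 5.09 and 76.7% ± 4.96, and Pcdha9 had 41.7% ± 4.86 and 69.0% ± 3.74. Pcdhgb6 had the lowest start among these 19 genes, at 3.85% ± 2.93, and 35.8% ± 3.51 beyond.

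The C-type genes showed the same direction at lower levels. Pcdhac2 had 2.16% ± 0.946 in its first 500 bp and 11.9% ± 1.29 beyond, Pcdhgc3 0.452% ± 0.586 and 3.88% ± 1.18, and Pcdhgc4 0.300% ± 0.380 and 2.44% ± 2.18 (n = 8 each), with Pcdhgc4 higher beyond in 5 of 8 libraries. Of 532 other genes with a first exon above 1000 bp, 206 (38.7%) were higher beyond 500 bp in every library, with a median difference of 0.539 points. The median of these genes was 0.712% in the first 500 bp and 1.75% beyond. Of the 67 with 20 to 80% beyond 500 bp, a choice that uses 1 of the values compared, 59 were higher there, with a median difference of 30.3 points. In control WT F0 sperm 15 of 17 alternate genes were higher beyond 500 bp, 6 of them in every library, with a median difference of 1.01 points, and 319 of 473 other genes were, 99 of them (20.9%) in every library, with a median of 0.333. Of the 37 other genes with 20 to 80% beyond 500 bp in F0 sperm, chosen in the same way, 36 were higher there, with a median difference of 29.8 points. In control WT F1 sperm it was 4 of 8 alternate genes, 3 of them in every library, with a median of 0.0150 points. In F0 sperm Pcdhga1 went from 0.625% ± 0.777 to 54.9% ± 4.67, Pcdhb6 from 2.55% ± 2.42 to 28.7% ± 3.11 and Pcdhac2 from 1.91% ± 1.73 to 17.7% ± 2.27.

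**Figure D4:**
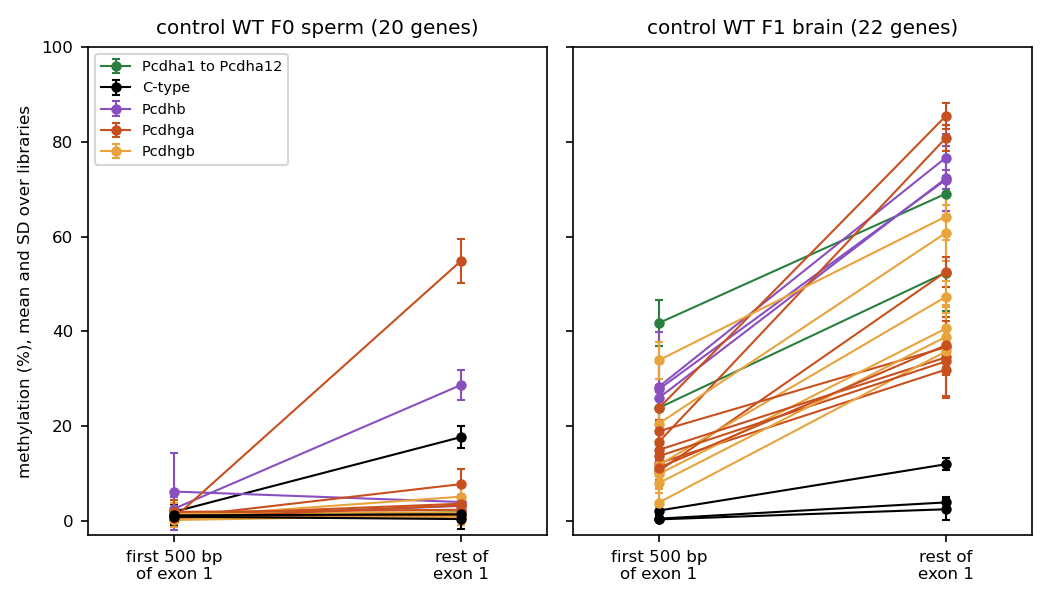
DNAme (percent, mean ± SD over libraries) in the first 500 bp and in the rest of the first exon, with a line for each gene with at least 3 scoreable cytosines in both parts, coloured by group of genes. In control WT F1 brain every line goes up to the right, and in control WT F0 sperm most stay near 0, except those of Pcdhga1, Pcdhb6 and Pcdhac2.

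Along the arrays in control WT brain, level and position correlated negatively in Pcdhga and Pcdhgb and in Pcdha1 to Pcdha12. In Pcdhb the correlation was weakly positive. Neither these correlations nor their differences between arrays were tested. For the 18 Pcdhga and Pcdhgb windows, the level and the position of the first exon had Pearson's r = −0.392 and Spearman's rho = −0.517, for the 10 windows of Pcdha1 to Pcdha12 −0.360 and −0.552, and for the 16 Pcdhb windows 0.157 and 0.112. In control WT F0 sperm the Pcdhga and Pcdhgb windows had r = −0.0986 and rho = −0.591. The level was also set against CpG density, as observed over expected CpG, and differences between arrays in this relation were not tested. In control WT F0 sperm the Pcdhga and Pcdhgb windows had r = −0.383 and rho = −0.678, Pcdha1 to Pcdha12 −0.0966 and −0.515, and Pcdhb −0.140 and −0.138. In brain the same sets had −0.357 and −0.315, −0.491 and −0.309, and 0.216 and 0.259. Over all 44 alternate windows, which mix arrays of unlike density and level, r was −0.390 and rho −0.629 in sperm and −0.402 and −0.375 in brain, and against the number of scoreable cytosines −0.242 and −0.148 in sperm and −0.357 and −0.356 in brain. These are descriptions across genes, which share libraries and differ in how many cytosines were read and where. The median observed over expected CpG was 0.644 in Pcdha windows, 0.392 in Pcdhb, 0.529 in Pcdhg and 0.476 in other gene windows.

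By the median SD, libraries of control WT brain varied in the alternate windows by no more than in other windows at 20 to 80%, which was not tested. The median SD was 2.91 points in 23 alternate windows with 10 or more cytosines and 3.20 in 232 others, and 4.85 points in 20 alternate windows with 3 to 9 cytosines and 6.31 in 537 others. With 10 or more cytosines the lower quartile was higher in alternate windows (2.49 against 2.10 points) and the upper quartile lower (3.67 against 5.01 points). In control WT F0 sperm, among windows at 0 to 10%, the alternate windows had the larger median SD, at 1.23 against 0.674 points with 10 or more cytosines (22 and 9025 windows) and 1.92 against 1.204 points with 3 to 9 (13 and 2326 windows).

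The next comparisons asked whether CS exposure, recovery from it or loss of NRF2 altered these genes in sperm, and 0 of the 48 protocadherin windows passed in any of 7 comparisons in F0 sperm or in the test of whether the smoke effect differed by genotype (limma, adjusted p under 0.05 over 12013 windows). Over all windows 0% were called in each of the 8. In none of the 7 comparisons were the libraries of both groups separate at any protocadherin window. Among all windows they were separate in 0% for smoked WT and recovery 1, in 0.00832% each for recovery 2, recovery 3 and control Nrf2-/-, and in 0.025% for smoked Nrf2-/-, all against control WT, and in 0.00832% for smoked against control Nrf2-/-. At an unadjusted p under 0.05, smoked WT against control WT had 3 of 48 windows (background 4.38%), recovery 1 had 4 (5.28%), recovery 2 had 1 (4.34%) and recovery 3 had 0 (5.49%). Against control WT, control Nrf2-/- had 5 (5.54%) and smoked Nrf2-/- had 3 (5.52%), smoked against control Nrf2-/- had 3 (4.53%), and the difference of smoke effects had 5 (3.6%). The difference was above 0 in 15 of 48 windows in smoked WT (40.1% of all windows), 22 in recovery 1 (47.7%), 20 in recovery 2 (39.2%) and 16 in recovery 3 (48%). It was above 0 in 27 windows in control Nrf2-/- (45.2%), 30 in smoked Nrf2-/- (40.5%), 25 in smoked against control Nrf2-/- (45.1%) and 31 in the difference of smoke effects (53.6%). The standard errors of the smoked WT differences ran from 0.198 to 2.16 points with a median of 0.729, and the members' median difference stayed between −0.235 and 0.113 points in the 7 comparisons. Comparisons with control WT share those 10 libraries. The study collected its unexposed WT males together with smoked WT, and the recovery groups later without controls of their own. Time after exposure, age and collection time therefore cannot be told apart in the recovery comparisons.

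By cluster, the F0 sperm groups lay close together. Pcdhb had its lowest mean in smoked WT, with 8.87% ± 0.874 (7.67 to 10.3%, n = 9) against 9.92% ± 0.867 (8.72 to 11.4%, n = 10) in control WT, which is a gap above 1 SD between groups that overlap. Its other means were 9.42% ± 0.643 in recovery 1 (n = 9), 9.605% ± 0.877 in recovery 2, 9.49% ± 0.991 in recovery 3 and 10.2% ± 0.767 in control Nrf2-/- (n = 10 each), and 10.5% ± 0.990 in smoked Nrf2-/- (n = 9). Group means ran from 3.21 to 3.75% in Pcdha and from 3.99 to 4.41% in Pcdhg. In F1 sperm of sons of smoked WT sires, Pcdha, Pcdhb and Pcdhg had 5.14% ± 0.654 (n = 7), 11.1% ± 1.23 (n = 7) and 4.18% ± 0.541 (n = 6). Cluster means are taken over a chosen list and were not tested.

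In smoked WT F0 sperm the windows nearest the threshold were Pcdhb19 and Pcdhb2. Pcdhb19 had 25.9 to 40.9% (median 30.9%, n = 9) in smoked WT and 24.9 to 41.7% (median 37.5%, n = 10) in control WT, a difference of −4.06 points ± 1.77 (limma adjusted p = 0.998). The groups overlapped over nearly their whole range. Pcdhb2 had 0.00219 to 2.76% in smoked WT and 1.40 to 4.99% in control WT, a difference of −1.04 points ± 0.482 (limma adjusted p = 0.998). In recovery 2, Pcdhb19 had 29.5 to 35.7% (median 33.2%, n = 10), and Pcdha1 differed from control WT by 1.15 points ± 0.523 (limma adjusted p = 1).

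In recovery 1, Pcdhb11 had 12.7 to 27.4% (median 17.03%, n = 9) against 7.02 to 15.4% in control WT (median 13.1%, n = 10), a difference of 4.90 points ± 1.59 (limma adjusted p = 0.824) on 5 cytosines. Pcdhb18 had 3.16% ± 2.41 (n = 9) against 0.894% ± 1.78 (n = 10), a difference of 2.27 points ± 0.750 (limma adjusted p = 0.824). With libraries weighted by their quality in limma, an alternative setting, Pcdhb18 passed, at 2.99 points and an adjusted p of 0.0263. The share of all windows called under that setting is not given here, so this call has no background beside it. In recovery 3, Pcdha8 and Pcdhb5 differed from control WT by 1.55 points ± 0.793 and 1.41 points ± 0.731, with limma adjusted p = 0.895 and 0.901.

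In the comparisons that involved Nrf2-/- sperm, by genotype, exposure or both, the named windows had differences of similar size, and none passed. In control Nrf2-/- sperm, Pcdha8 was 2.22 points ± 0.793 above control WT (limma adjusted p = 0.853) and Pcdhb20 differed from it by −4.38 points ± 1.70 (limma adjusted p = 0.857). The control WT libraries of Pcdhb20 spread from 0 to 20.8%, and without control WT column 7 the difference was −2.61 points. In smoked Nrf2-/- sperm, Pcdha1 had 1.81 to 5.84% (median 3.51%, n = 8 of 9), against 0.533 to 3.27% (median 1.56%, n = 10) in control WT and 0.519 to 3.08% (median 1.497%, n = 10) in control Nrf2-/-. The differences were 2.08 points ± 0.555 each (limma adjusted p = 0.287 and 0.517), and the ranges overlapped. Pcdhb11 was 4.29 points ± 1.59 above control WT (limma adjusted p = 0.827), and Pcdhgb7 was 0.924 points ± 0.428 above control Nrf2-/- (adjusted p = 1), or 0.565 points without smoked Nrf2-/- column 1. In the difference of smoke effects, Nrf2-/- minus WT, Pcdhb6 had 4.75 points ± 2.18 and Pcdhb2 1.69 points ± 0.682 (limma adjusted p = 0.998 for both).

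By the size rule, 3 entries in F0 sperm passed. Pcdhb11 was higher in recovery 1 and in smoked Nrf2-/- than in control WT, by 6.53 and 5.76 points, with 2 of 5 cytosines past 5 points in each, and Pcdhb13 was higher in control Nrf2-/-, by 5.04 points. The rule called 0.607%, 0.674% and 0.724% of all windows in these 3 comparisons, against 1 of 48 members in each. In the other 4 comparisons it called 0 members, with 0.583% of all windows in smoked WT, 0.391% in recovery 2, 0.674% in recovery 3 and 0.649% in smoked against control Nrf2-/-.

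In F1 sperm, which asked whether a sire's exposure reaches the sperm of his sons, 0 of 37 protocadherin windows passed between sons of smoked and control WT sires (limma, 0% of 8176 windows called). None had an unadjusted p under 0.05, where 4.97% of all windows did, and the libraries were separate in 0 members and in 0.722% of all windows. Standard errors ran from 0.236 to 4.62 points. Pcdhb13 came nearest. Its libraries had 21.8 to 34.3% in sons of smoked sires (median 25.7%, n = 5 of 7) and 19.4 to 23.8% in sons of control sires (median 22.6%, n = 6), a difference of 5.26 points ± 2.48 (limma adjusted p = 0.891). It passed the size rule, as 1 of 37 members and 1.28% of all windows did. Pcdhga5 differed by 1.29 points ± 0.617 (adjusted p = 0.891), or 0.844 points without smoked WT column 1.

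In F1 brain, 0 of 49 protocadherin windows passed in any of 4 comparisons or in the difference of smoke effects (limma, 12764 windows). Over all windows 0% were called between sons of smoked and control WT sires, 0.00783% between control Nrf2-/- and control WT, 0.0235% between smoked Nrf2-/- and control WT, 0% between smoked and control Nrf2-/-, and 0% in the difference of smoke effects. Libraries of both groups were separate in 0 members, against 0.0157 to 0.125% of all windows. At an unadjusted p under 0.05 these comparisons had, in the same order, 4, 3, 9, 6 and 7 of 49 members, where 2.22%, 19.5%, 17.9%, 4.77% and 4.38% of all windows had it. Most of those windows are near 0. Among windows at 20 to 80% the shares were 9.30% of 43 alternate windows and 6.76% of 769 others between smoked and control WT, 6.98% and 5.20% between control Nrf2-/- and control WT, 18.6% and 9.36% between smoked Nrf2-/- and control WT, 14.0% and 18.1% between smoked and control Nrf2-/-, and 16.3% and 19.1% in the difference of smoke effects. Standard errors were larger than in sperm, from 0.460 to 6.37 points with a median of 1.99 between smoked and control WT.

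In sons of smoked WT sires, Pcdhb7 had 68.9% ± 3.88 against 63.9% ± 2.21 in control WT, a difference of 4.95 points ± 1.47, and Pcdhb11 had 64.8% ± 5.06 against 70.0% ± 3.70, a difference of −5.20 points ± 1.99 (n = 8 each, limma adjusted p = 1 for both). A difference of 5 points in a brain window of this kind could thus miss the threshold. The size rule called 4 of 49 members here, with Pcdhb10 and Pcdhga12 higher by 6.04 and 5.73 points, and with Pcdhb11 at −5.14 and Pcdhb16 at −9.55 points, and it called 1.59% of all windows. Pcdhb16 rests on 3 cytosines, with libraries from 42.4 to 73.1% in sons of smoked sires and from 63.8 to 80.1% in sons of control sires.

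In sons of unexposed Nrf2-/- sires, Pcdha8 had 55.0 to 61.9% (median 58.8%) against 51.0 to 55.5% (median 54.0%) in control WT, a difference of 4.80 points ± 1.59 (n = 8 each, limma adjusted p = 0.233). Pcdhb7 differed by 3.62 points ± 1.47 (adjusted p = 0.233). The median difference was 0.682 points in members, 33 of 49 of which were above 0, and 0.402 points over all windows, of which 88.5% were above 0. The size rule called 1 of 49 members, Pcdhgc5 at 5.32 points, and 1.39% of all windows.

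The sons of smoked Nrf2-/- sires had the lowest group mean over the alternate genes. It was 45.9% ± 2.09, against 47.1% ± 1.05 in control WT, 47.8% ± 2.09 in smoked WT and 47.6% ± 0.958 in control Nrf2-/- (n = 8 each). Against control Nrf2-/-, 11 of 49 member windows had a difference above 0 and the median was −1.58 points, while over all windows 41.3% were above 0 and the median was −0.0564. Most gene windows are near 0 and can hardly go lower. Among windows at 20 to 80%, 20.9% of 43 alternate protocadherin windows and 22.9% of 769 others were above 0, with medians of −1.70 and −2.69 points, so the alternate genes lay near other windows of their level. Against control WT, 19 of 49 members were above 0 with a median of −0.532 points, where 81.9% of all windows were, and among windows at 20 to 80% it was 34.9% of the alternate windows and 31.1% of the others.

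The level over all scoreable cytosines of the genome, a plain mean not adjusted for which cytosines a library has, moved with this result. It was 34.3% ± 1.99 (31.7 to 36.2%) in smoked Nrf2-/-, against 36.0% ± 0.593 in control Nrf2-/-, 35.4% ± 0.811 in control WT and 35.9% ± 2.22 in smoked WT (n = 8 each). Its part in the result was not tested.

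Pcdhga10 and Pcdhga11, the lowest alternate genes of Pcdhg in brain, came nearest the threshold here. Pcdhga10 had 14.6 to 27.8% (median 19.9%) in smoked Nrf2-/- and 21.3 to 30.2% (median 23.4%) in control Nrf2-/-, a difference of −4.15 points ± 1.58 (limma adjusted p = 0.910). Pcdhga11 had 13.7 to 23.4% (median 20.0%) and 20.3 to 26.7% (median 24.1%), a difference of −4.11 points ± 1.40 (limma adjusted p = 0.795). In both genes the groups overlapped. Against control WT, Pcdhga10 and Pcdhgb8 had −4.19 points ± 1.58 and −3.87 points ± 1.53 in smoked Nrf2-/- (limma adjusted p = 0.246 and 0.249). In the difference of smoke effects, Pcdha8 had −6.68 points ± 2.26 and Pcdhga4 −6.04 points ± 2.07 (limma adjusted p = 0.944 and 1).

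By the size rule, smoked Nrf2-/- brain had 4 of 49 members past it against control WT, where 2.01% of all windows were. These were Pcdha9, Pcdhb10 and Pcdhga12, higher by 5.41, 6.64 and 5.11 points, and Pcdha2, at −6.20 points. Against control Nrf2-/- it had 2 of 49, Pcdha7 at −6.32 and Pcdhb18 at −8.73 points, where 2.63% of all windows were called, 2.52% as lower. No member called by size passed limma in these comparisons, and this rule ignores how much libraries of a group vary.

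**Figure D5:**
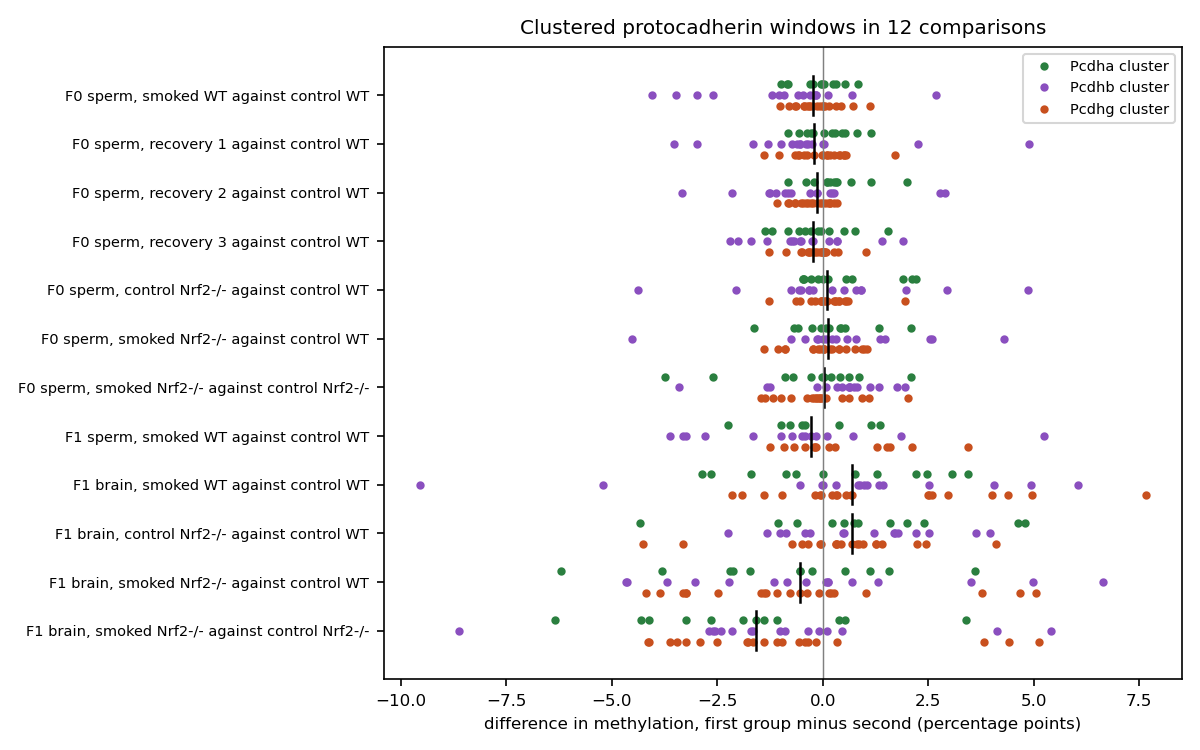
Differences in DNAme (percentage points, first group minus second) of all tested protocadherin windows (points coloured by cluster) in the 12 comparisons within a tissue, with a black bar for their median and a grey line at 0. The medians lie between −0.275 and 0.113 points in sperm, and in brain from −1.58 (smoked against control Nrf2-/-) to 0.701 points (smoked against control WT).

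The other genes of the pathway gave 0 calls in each of the 14 sperm and brain contrasts of exposure and genotype (limma, 9 to 11 non-clustered genes, 11 to 14 regulators and 2 or 3 neighbours tested). At an unadjusted p under 0.05 there were 0 or 1 non-clustered genes, 0 to 4 regulators and 0 or 1 neighbours in each. The 4 regulators were found between smoked Nrf2-/- and control WT brain, where 17.9% of all windows had such a p.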

How the data were processed

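RRBS libraries (MspI and TaqI digests) of single mice were analysed. The authors aligned reads to mm10 with Bismark (versions not given in the sources used here) and deposited a table per group with the percent methylation of each CpG cytosine in each library. Percents carry no read counts, so depth is unknown, no interval is given, and errors are the spread between libraries. Columns carry no sample label beyond their group and are named by their place (0 unused columns). Members, gene lists and tests were chosen with earlier results of these data known.

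A window took the transcript with the longest coding sequence (GENCODE vM21). Library values were adjusted for the cytosines present, within each tissue and generation. limma 3.58.1 (R 4.3.3), with trend and robust variance, was fitted over all groups of a tissue and generation (for the tissue test, all F1 groups), on all windows with 4 or more libraries with a value in every group. p-values were adjusted by Benjamini-Hochberg with a threshold of 0.05. Named genes were those past the threshold (at most 10 per cluster), or the 2 with the smallest p where none passed, and for levels the 3 highest and 3 lowest per cluster and the C-type genes. Genes called by the size rule, the smallest tissue differences of Pcdhb and Pcdhg, and those used for positions within exons, were named after their values were seen. The scripts were tested on simulated data over all windows, most of which are near 0 and vary less than the protocadherin windows, so 0 calls do not bound the size of a difference here. Alternatives were logit values, 6 libraries or 1 cytosine as minimum, unadjusted means, 2 groups alone, parts of the window, averaged strands, joined regions, array weights and leaving out libraries. No sequence of these genes is printed.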

Additional observations from a re-analysis of the deposited data

Results flagged for a closer look

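In 7 of 65 sets of library values examined (clusters and gene sets by group of 4 to 10 libraries), 1 library stood apart by Dixon's criterion, which chance alone meets in about 1 in 20 sets. Control WT F0 sperm column 9 had 6.11% over the Pcdha cluster, where the other 9 libraries had 2.70 to 3.99%, with a value at 83 of 144 cytosines. Smoked Nrf2-/- F0 sperm column 7 had 12.8% over Pcdhb, where the others had 9.13 to 10.8%. In brain, control Nrf2-/- column 2 had 38.2% over Pcdha (others 34.2 to 35.1%) and smoked Nrf2-/- column 2 had 31.5% (others 33.7 to 35.0%). Smoked WT brain column 8 was the lowest over Pcdhb at 59.4% (others 63.0 to 66.0%), over Pcdhg at 28.8% (others 33.2 to 34.9%) and over all alternate genes at 42.8% (others 47.6 to 49.2%). The last 3 are the same library, which had a value at 121 of 153 Pcdhb cytosines and was low over all scoreable cytosines too (30.6%, a plain mean).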

How the results depend on the processing

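Under the other settings, 177 counts of called protocadherin windows stayed within 1.5 times the reported count and 3 did not. With array weights, recovery 1 had 1 called window in place of 0, and the share of all windows called under that setting is not given here. The tissue comparison had 13 called (of 13 tested) with at least 6 libraries per group and 4 (of 4 tested) with 1 kb upstream only, which follows from the fewer windows tested. The share of all windows called under each of these settings is not given here, so these counts have no background beside them. Leaving out each library in turn gave 30 called windows in the tissue comparison and 0 in every other, but moved counts at an unadjusted p under 0.05, to 0 to 5 windows for smoked WT F0 sperm, 2 to 4 for recovery 1, 0 to 3 each for recovery 2 and recovery 3, 2 to 6 for smoked Nrf2-/- F0 sperm against either control group, 4 to 6 for control Nrf2-/- F0 sperm, 1 to 6 for the difference of smoke effects in F0 sperm, 0 to 2 for F1 sperm, and, in brain, 3 to 6 for smoked WT, 2 to 4 for control Nrf2-/-, 7 to 9 for the difference of smoke effects and 4 to 10 for smoked Nrf2-/- against either control group. The shares of all windows without each library are not given here either. Of the differences of named members, 544 values under other settings kept their direction and side of the threshold, and Pcdhb18 in recovery 1 passed with array weights (2.99 points). Cluster means in control WT depended on the part of the window read. With 1 kb upstream only they were 25.8% (Pcdhb) and 10.9% (Pcdhg) in F0 sperm, 8.23% (Pcdha), 20.2% (Pcdhb) and 11.8% (Pcdhg) in F1 sperm, and 48.8% (Pcdhb) and 18.007% (Pcdhg) in brain. With the first exon only, Pcdhb had 8.47%, 9.90% and 64.0% in the same 3 groups. With at least 6 libraries per group, Pcdha, Pcdhb and Pcdhg had 11.9%, 17.5% and 4.77% in F1 sperm, and Pcdha and Pcdhg had 36.2% and 31.02% in brain. With strands averaged, Pcdha had 32.8% in brain. The cause was not tested beyond the cytosines each setting keeps. Leaving out brain libraries chosen after seeing the data (4 high over all gene windows, or 5 low over all scoreable cytosines) gave 0 called members in each brain comparison. The 5 low libraries came from the smoked groups, so leaving them out moves those groups up by construction, and no other value of it is given. They were not the 5 lowest by the plain mean over all scoreable cytosines. By that mean control WT brain column 7 (33.8%) was lower than smoked Nrf2-/- brain column 6 (33.9%). No paired analysis was possible because the columns carry no replicate numbers. Unknown read depth and the few cytosines in many windows limit every value.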
